A study of Arabidopsis thaliana with 48 samples.

Results

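The genes described here are 8 genes of Arabidopsis thaliana known from studies of drought or cold, chosen by name from the 27655 genes of the count tables. No library here is from cold-treated plants. They are RD29A (LTI78 in the annotation, AT5G52310), RD29B (LTI65, AT5G52300), COR15A (AT2G42540), COR15B (AT2G42530), KIN1 (AT5G15960), KIN2 (AT5G15970), RD22 (AT5G25610) and RD20 (AT2G33380). They were followed in rosette leaves of the wild type Col-0 (WT) and of mta ABI3:MTA, here called mta. MTA is the catalytic subunit of the complex that writes N6-methyladenosine (m6A) into mRNA. In mta its loss is lethal to the embryo and is bridged by an MTA copy under the ABI3 promoter, which is active in the embryo, so that the plant lacks most MTA activity only later. Plants of each genotype were 17 days old when watering stopped for 12 days (drought) or went on (control). Each of these 4 groups has 3 libraries for each of 4 assays, which are mRNA-seq (the input of the immunoprecipitation), m6A immunoprecipitation, sequencing of RNA from polysomes and GMUCT, a method that reads transcripts without their cap, most of them in decay.

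The 8 genes are classic reporters of abscisic acid (ABA), drought and cold signalling. The promoter of RD29A is read by the CBF/DREB1 and DREB2 factors and by the ABA-dependent ABF factors, while RD29B is a target mainly of the ABF factors and COR15A, KIN1 and KIN2 are cold induced targets of the CBF factors. RD22 is known as a target of MYC2 and MYB2. Their proteins are mostly small and hydrophilic and are thought to protect membranes and proteins in cells that lose water.

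Each mRNA library held 1504013 to 5503037 counts, each polysomal library 35833742 to 43032763 and each GMUCT library 1313457 to 12421168, and the m6A libraries came as lists of 7746 to 12228 peaks. The smallest mRNA library, WT control replicate 3, stood apart, with 11.7% plastid counts against 1.93% to 4.36% in the other mRNA libraries. Its counts differed from replicates 1 and 2 by a chi-square per degree of freedom of 19.3 and 19.0, against 2.28 between replicates 1 and 2. Whether libraries of 1 group stem from different plants is not stated, so the p-values cover only the spread among these libraries, which may be technical. MTA mRNA stood at 17.7 to 26.0 CPM (counts scaled to the TMM-adjusted library size) in the 6 WT libraries and at 6.97 to 10.6 CPM in the 6 mta libraries. All 4 leaf markers were present, with a summed level of 17329 to 18662 CPM in WT control, 2136 to 2270 CPM in WT drought, 20547 to 21966 CPM in mta control and 3535 to 3693 CPM in mta drought. The 7 seed markers summed to 0 to 0.607 CPM in WT control and 0 to 0.881 CPM in mta control, but to 25.5 to 29.9 CPM in WT drought and 8.60 to 10.7 CPM in mta drought. Most of the seed sum came from EM1, itself a late embryogenesis abundant (LEA) gene, and CRC, a storage protein gene, was at 0 in all 12 mRNA libraries. The 3 root markers summed to 119 to 141, 33.4 to 36.8, 194 to 199.6 and 53.6 to 59.7 CPM in the same order of groups, with COBL9, a root hair gene, at 0 in all but mta drought. The 4 flower markers summed to 4.90 to 9.94 CPM in WT control, 0.456 to 2.47 in WT drought, 0.812 to 2.95 in mta control and 0.799 to 1.77 in mta drought, and WT control was also the highest group in polysomal RNA (8.13 to 10.3 CPM) and in GMUCT (12.8 to 15.8 CPM). The 3 guard cell markers summed to 37.1 to 44.7, 14.4 to 20.5, 56.2 to 61.2 and 19.2 to 28.1 CPM. The part of these shifts in the results below was not tested, and in bulk leaf samples fewer cells of a type and less RNA per cell cannot be told apart.

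Of the 8 genes, 6 form 3 pairs of neighbours on the TAIR10 genome. RD29B (chromosome 5, 21237021 to 21239531) lies 1186 bases before RD29A (21240717 to 21243644) on the plus strand. KIN1 (chromosome 5, 5209717 to 5210826) lies 893 bases before KIN2 (5211719 to 5212743), also on the plus strand. COR15A (chromosome 2, 17710441 to 17712330) and COR15B (17708593 to 17710433) are on the minus strand, 8 bases apart, and the far end of COR15B overlaps AT2G42520 on the plus strand. RD22 (chromosome 5, 8914122 to 8916856) and RD20 (chromosome 2, 14144831 to 14146555) stand alone, both on the minus strand. KIN1 and KIN2 are near-identical copies, as are COR15A and COR15B to a lesser degree, and per the file headers reads that map to several places were not counted, so levels within these pairs are uncertain. All 8 genes passed the filter on low counts in each of the 3 readouts that were tested.

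RD29A and RD29B encode hydrophilic proteins of related sequence that are used as reporters of osmotic and ABA signalling. RD29A mRNA stood at 257, 279 and 263 CPM in the 3 WT control libraries and at 5022, 5065 and 4751 CPM in the 3 WT drought libraries. In mta it stood at 309, 290.3 and 284 CPM in control and at 1176, 1277 and 1261 CPM in drought. In control every mta library lay slightly above every WT library, and in drought every mta library lay far below every WT library. RD29A rose with drought by 4.21 ± 0.09 (log2 fold change ± SE, edgeR quasi-likelihood test on 3 libraries per group) in WT and by 2.07 ± 0.08 in mta, that is 18.6-fold and 4.201-fold. The drought effect differed between the genotypes by -2.14 ± 0.11 (mta minus WT, adjusted p = 3.5e-12), and mta was lower than WT in drought by -1.999 ± 0.08, with no call in control (0.15 ± 0.08, adjusted p = 0.228).

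RD29B started from almost nothing. It held 2.89, 2.83 and 5.60 CPM in WT control, which rest on 16, 14 and 8 reads, and 9.54, 6.44 and 7.23 CPM in mta control. In WT drought it reached 4328, 4601 and 4157 CPM and in mta drought 1016, 1083 and 1117 CPM. No library of 1 group overlapped with another group, with mta above WT in control and below it in drought. Its mRNA rose by 10.38 ± 0.17 in WT, the 13th highest of 17666 tested genes, and by 7.10 ± 0.14 in mta. The difference of the drought effects was -3.28 ± 0.22 (adjusted p = 2.2e-10), to which mta contributed both a higher control level (1.26 ± 0.20, adjusted p = 0.00011) and a lower drought level (-2.02 ± 0.10, adjusted p = 4.1e-13).

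COR15A and COR15B encode small chloroplast proteins of the LEA type, known to stabilise membranes in freezing leaves. The copies went opposite ways. COR15A mRNA stood at 79.7, 83.0 and 52.5 CPM in WT control and at 4087, 4447 and 4725 CPM in WT drought. In mta it stood at 153, 209 and 167 CPM in control and at 2873, 3337 and 2692 CPM in drought. As with RD29B, mta was above WT in control and below it in drought in every library. COR15A rose by 5.91 ± 0.16 in WT and by 4.07 ± 0.14 in mta, with a difference of -1.83 ± 0.19 (adjusted p = 9.3e-08).

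COR15B held 43.4, 46.2 and 38.5 CPM in WT control and fell to 7.98, 9.06 and 7.22 CPM in WT drought. In mta it held 55.0, 76.5 and 72.6 CPM in control and 26.0, 34.1 and 23.5 CPM in drought. In either watering regime every mta library was above every WT library. COR15B is the member whose mRNA fell with drought, by -2.43 ± 0.18 in WT (adjusted p = 8.6e-11) and by -1.29 ± 0.14 in mta (adjusted p = 5.8e-08). The difference of the drought effects was 1.14 ± 0.24 (adjusted p = 0.00064), a smaller fall in mta, and mta exceeded WT by 0.64 ± 0.14 in control and by 1.79 ± 0.19 in drought.

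KIN1 and KIN2 encode very small alanine-rich proteins, once likened to fish antifreeze proteins. KIN1 mRNA stood at 6.69, 8.10 and 3.50 CPM in WT control (37, 40 and 5 reads) and at 961, 946 and 1026 CPM in WT drought. In mta it stood at 15.03, 15.8 and 13.0 CPM in control and at 908, 1003 and 809 CPM in drought. Control levels were higher in mta in every library, while the drought libraries of the genotypes overlapped. KIN1 rose by 7.16 ± 0.15 in WT and by 5.96 ± 0.14 in mta. The difference of -1.20 ± 0.20 (adjusted p = 8.2e-05) sits in the control level, which was higher in mta by 1.096 ± 0.18 (adjusted p = 9.3e-05), since in drought the genotypes differed by only -0.11 ± 0.10 (adjusted p = 0.393). That last value became -0.58 and passed the threshold (adjusted p = 4.79e-06) when the trend of each library along gene span was removed.

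KIN2 was already abundant without drought, at 293, 363 and 229.7 CPM in WT control and 421, 539 and 492 CPM in mta control. It held 389, 370.2 and 437 CPM in WT drought and 720.1, 760.4 and 656 CPM in mta drought. Its groups are close but do not overlap within a genotype, and all mta libraries of a regime lay above the WT libraries. KIN2 rose by 0.42 ± 0.13 in WT (adjusted p = 0.0056) and by 0.56 ± 0.12 in mta (adjusted p = 0.00043). The difference was 0.14 ± 0.18 (adjusted p = 0.581), and it turned to -0.30 with the span trend removed and to -0.04 without WT control replicate 2. Against WT, KIN2 was higher in mta by 0.70 ± 0.13 in control and by 0.84 ± 0.13 in drought. With the span trend removed the drought value was 0.33 (adjusted p = 0.0062) and the rise in mta was 0.30 (adjusted p = 0.0085), both still called.

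RD22 encodes a BURP-domain protein of the cell wall and RD20 a caleosin, a calcium-binding protein of lipid droplets with peroxygenase activity. RD22 mRNA stood at 327, 330.2 and 293 CPM in WT control and at 1240.4, 1274 and 1249 CPM in WT drought, against 342, 253 and 262 CPM in mta control and 700.1, 750.5 and 710.0 CPM in mta drought. Its control libraries overlapped between the genotypes and its drought libraries did not. RD22 rose by 1.98 ± 0.10 in WT and by 1.33 ± 0.10 in mta, with a difference of -0.65 ± 0.14 (adjusted p = 0.00098). In control mta and WT differed by -0.15 ± 0.10 (adjusted p = 0.332), which became -0.30 (adjusted p = 0.019) without mta control replicate 1.

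RD20 mRNA stood at 38.7, 49.4 and 39.9 CPM in WT control and at 295, 319.9 and 331 CPM in WT drought. In mta it stood at 64.2, 88.8 and 66.6 CPM in control and at 963, 981 and 932 CPM in drought. Every mta library was above every WT library of the same regime. RD20 rose by 2.87 ± 0.12 in WT and by 3.72 ± 0.12 in mta, so that, alone among the members whose mRNA rose by more than 1 log2 unit, its rise was larger in mta (difference 0.85 ± 0.16, adjusted p = 0.00034). In drought it was 3.04-fold higher in mta than in WT (1.60 ± 0.11, adjusted p = 5.6e-11).

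**Figure D1:**
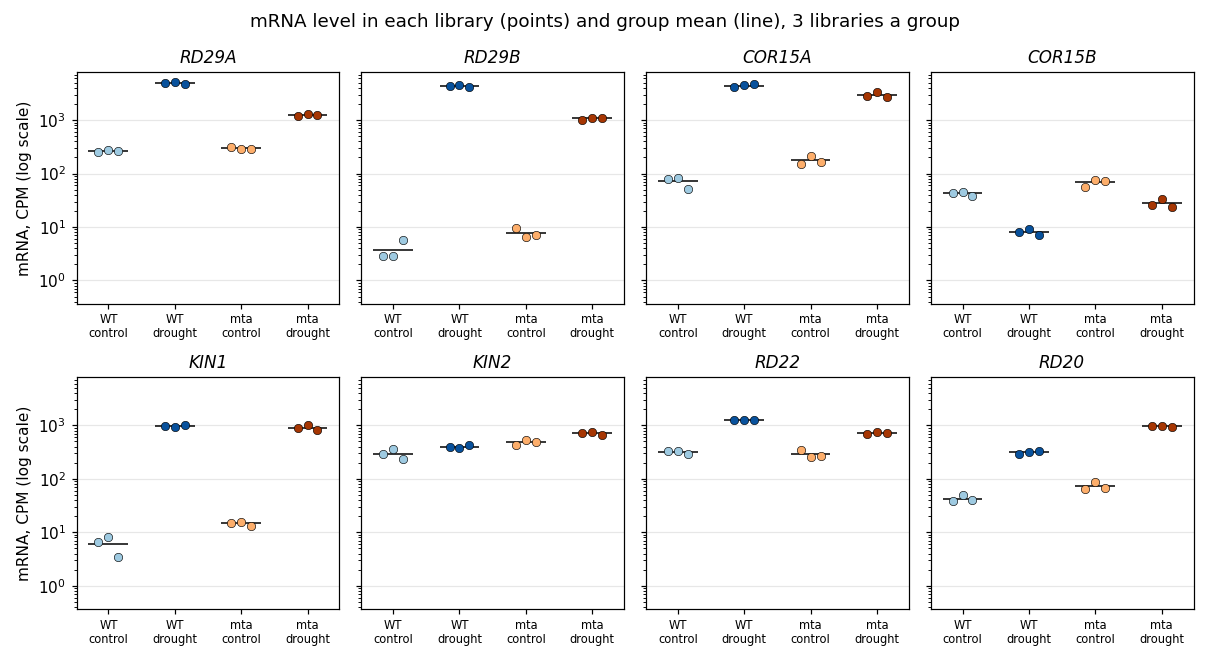
mRNA level of each of the 8 genes in CPM on a log axis, with 1 point per library, a line at the group mean and 3 libraries per group. RD29A and RD29B are lower in mta drought than in WT drought, RD20 and COR15B are higher, and KIN1 reaches a like level in both, with no span correction.

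All 8 members were called in drought against control in each genotype (Benjamini-Hochberg adjusted p under 0.05 over all 17666 genes), 7 higher and 1 lower in both. Drought was called for 67.9% of all tested genes in WT, 32.6% higher and 35.3% lower, and for 70.3% in mta, 35.1% higher and 35.3% lower, so a call alone is common and the sizes carry the description. The median of the 8 values was 3.54 in WT and 2.89 in mta, beside -0.01 over all genes in either genotype. Between the genotypes 6 members were higher in mta in control, none was lower, beside 17.8% of all genes, 8.5% higher and 9.28% lower. In drought 3 members were higher in mta (KIN2, COR15B, RD20) and 4 were lower (RD29A, RD29B, COR15A, RD22), beside 52.7% of all genes, 26.6% higher and 26.1% lower. A difference of the drought effects was called for 7 members, 2 above and 5 below 0, beside 37.6% of all genes, 19.6% above and 18.0% below 0. No mRNA call of a member was lost when any of the 12 libraries was left out.

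**Figure D2:**
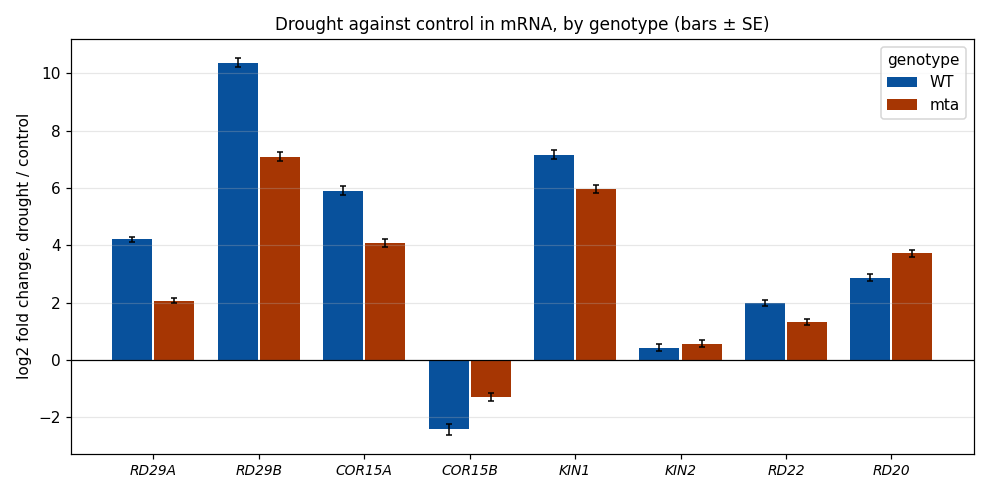
Log2 fold change of drought against control in mRNA for each gene, with bars for WT and mta and whiskers of 1 SE. The WT bar is taller for RD29A, RD29B, COR15A, KIN1 and RD22. The mta bar is taller for RD20 and slightly for KIN2, whose difference was not called, and COR15B points down in both.

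Together the 8 genes took 0.105% ± 0.0169 (SD, n = 3) of all mRNA counts in WT control and 1.62% ± 0.0353 in WT drought. In mta their share was 0.142% ± 0.00858 in control and 0.871% ± 0.0563 in drought. In the polysomal libraries the shares of WT went from 0.198% to 2.19% and those of mta from 0.272% to 1.17%, and in the GMUCT libraries from 0.150% to 3.71% and from 0.223% to 1.73%.

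Per kilobase of gene span, introns included, the order of the mRNA levels turned over with drought. In WT control KIN2 led with 288 ± 65.1 CPM per kilobase (SD, n = 3), followed by RD22 at 116, RD29A at 90.9 and COR15A at 37.96. COR15A lay above COR15B (23.2) in every library, RD20 (24.7) overlapped with both, and KIN1 (5.49) and RD29B (1.50) came last. In WT drought COR15A led with 2338 ± 169 CPM per kilobase, rank 12 of all 27655 genes, above RD29B (1737) and RD29A (1689), which overlapped. KIN1 (881), RD22 (459), KIN2 (389), RD20 (183) and COR15B (4.39) followed in that order without overlap. In mta drought COR15A led again with 1570.1 ± 176, KIN1 (817) and KIN2 (695) came next and overlapped, and RD20 (556) stood above RD29B (427) and RD29A (423). In mta control the order was KIN2 (472), then RD22 (104), RD29A (101) and COR15A (93.3), which overlapped, then RD20 and COR15B, KIN1 and RD29B.

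The balance within each pair of neighbours moved by orders of magnitude. RD29A exceeded RD29B per kilobase of mRNA by a ratio of 40.3 to 84.4 in the WT control libraries, and the ratio was 0.944 to 0.995 in WT drought and 0.968 to 1.01 in mta drought. In mRNA per kilobase of gene span RD29A and RD29B thus reached a like level in drought in both genotypes. That level was 4.07-fold lower for RD29B in mta than in WT. In polysomal RNA their ratio was 1.09 to 1.11 in WT drought and 1.15 to 1.21 in mta drought. In GMUCT it was 0.768 to 0.817 in WT drought and 0.580 to 0.634 in mta drought. The ratio of COR15A to COR15B went from 1.33 to 1.79 in WT control to between 478 and 638 in WT drought, and in mta from 2.24 to 2.70 to between 95.3 and 112. The ratio of KIN1 to KIN2 went from 0.0141 to 0.0211 to between 2.17 and 2.36 in WT, and from 0.0245 to 0.0329 to between 1.14 and 1.22 in mta. The polysomal ratios of KIN1 to KIN2 in drought, 2.32 to 2.34 in WT and 1.15 to 1.18 in mta, lay close to those in mRNA. In the GMUCT libraries the same ratio was 23.1 to 26.6 in WT drought and 12.2 to 16.5 in mta drought.

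**Figure D3:**
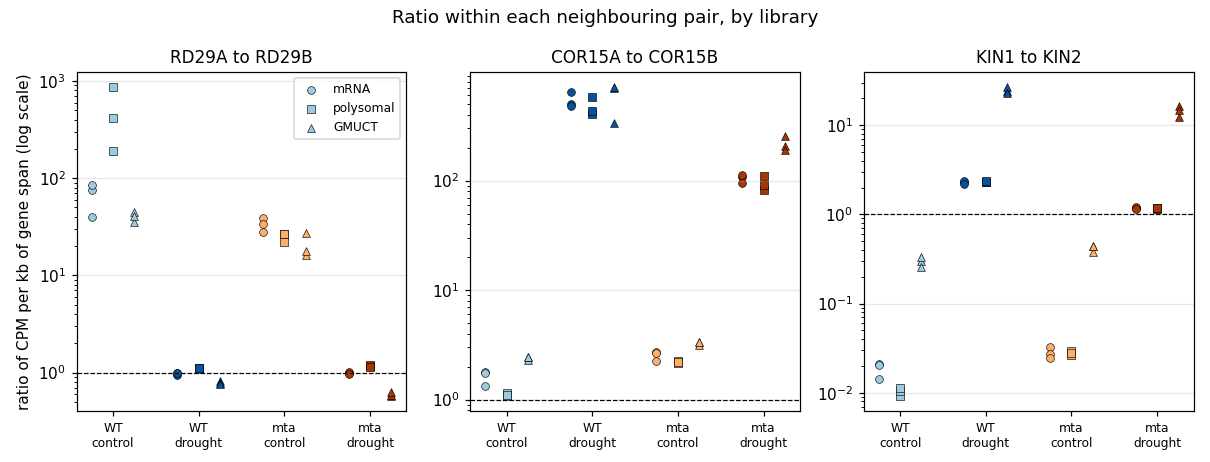
Ratio of the levels per kilobase of gene span within each pair of neighbouring genes on a log axis, with 1 point per library and a dashed line at equal levels. RD29A and RD29B meet near 1 in drought in mRNA and polysomal RNA. In GMUCT their drought ratios are 0.768 to 0.817 in WT and 0.580 to 0.634 in mta. COR15A leaves COR15B behind, and KIN1 crosses KIN2 in mRNA and polysomal RNA, with GMUCT ratios of KIN1 to KIN2 about an order of magnitude above them.

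Polysome association, the change of polysomal RNA relative to mRNA on the log2 scale, reads how much of a transcript sits on several ribosomes. Drought raised it for 3 members in WT (RD29A, RD29B, KIN1) and lowered it for 3 (COR15A, COR15B, RD20), where 18.8% of 20392 genes were called, 11.8% higher and 6.93% lower. In mta 3 members were higher (RD29A, RD29B, RD22) and 5 were lower (KIN1, KIN2, COR15A, COR15B, RD20), where 35.6% of all genes were called, 21.6% higher and 14.0% lower. The zero point of these drought values depends on the scaling. Their median over all genes was 0.07 in WT and 0.05 in mta, and it moved to between -0.13 and -0.09 in WT and between -0.18 and -0.15 in mta in the 19 of 24 fits with 1 library left out in which the scaling took another reference library. With DESeq2's size factors the medians were -0.03 and -0.07, and with TMM taken within each assay the median in mta was -0.10. The share of higher values among the called genes then went from 63.1% to 45.9% in WT and from 60.7% to 49.9% in mta with DESeq2's size factors, and to 46.7% in mta with TMM within each assay. Values are therefore also given relative to the median of all genes.

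RD29A held 156, 165 and 163 polysomal CPM in WT control and 5592, 5518 and 5773 in WT drought, and 197, 173 and 191 in mta control and 1822, 1813 and 1882 in mta drought. Its polysomal rise was larger than its mRNA rise in both genotypes. The association rose by 0.97 ± 0.08 in WT (adjusted p = 9.3e-10) and by 1.28 ± 0.08 in mta (adjusted p = 2.7e-13), or by 0.90 and 1.23 above the median of all genes. With any library left out these relative values stayed between 0.84 and 0.94 and between 1.17 and 1.27. The difference between the genotypes was 0.31 ± 0.11 (adjusted p = 0.0782), which was called by DESeq2 (adjusted p = 0.0299).

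RD29B was nearly missing from polysomes in watered WT leaves. It held 0.323, 0.164 and 0.732 polysomal CPM there, which rest on 14, 6 and 30 reads, against 6.27, 5.63 and 7.38 CPM (258, 238 and 328 reads) in mta control. In WT control its polysomal level relative to mRNA was -2.78 ± 0.35 on the log2 scale, lower than in all but 1.24% of genes, and in mta control it was -0.17 ± 0.18. The association was thus higher in mta than in WT in control by 2.61 ± 0.38 (adjusted p = 2.8e-05). In drought RD29B reached 4319, 4340.3 and 4458 polysomal CPM in WT and 1327, 1286 and 1409 CPM in mta. The association rose by 3.00 ± 0.37 in WT (adjusted p = 6.7e-07), and the difference of the drought effects was -2.35 ± 0.41 (adjusted p = 0.00024). In mta its rise of 0.65 ± 0.21 (adjusted p = 0.0137) missed the threshold in 17 of the 24 fits with 1 library left out, with values down to 0.25 (adjusted p = 0.452), and with TMM taken within each assay (0.50, adjusted p = 0.0567). The WT control values rest on the few reads given above in both assays.

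KIN1 went opposite ways in the genotypes. It held 9.37, 10.6 and 11.8 polysomal CPM in WT control and 2457, 2525 and 2567 in WT drought. In mta it held 41.2, 39.1 and 40.6 polysomal CPM in control and 1689, 1784 and 1805 in drought, so that every mta library was above WT in control and below it in drought. The association rose by 0.78 ± 0.17 in WT (adjusted p = 0.0016) and fell by -0.47 ± 0.13 in mta (adjusted p = 0.0064), and the difference was -1.25 ± 0.22 (adjusted p = 0.00031). The rise in WT missed the threshold without WT control mRNA replicate 2 (0.58, adjusted p = 0.0698), as did the higher association of mta in control (0.78 ± 0.19, and 0.59 without it, adjusted p = 0.159). The fall in mta turned to 0.09 (adjusted p = 0.669) with the span trend removed.

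KIN2 and the COR15 genes had the highest polysomal level relative to mRNA among the members in watered WT leaves. The part of gene span or of uncounted multiply mapping reads in this order was not tested. Their polysomal level relative to mRNA in WT control was 1.83 ± 0.09 for KIN2, 1.92 ± 0.13 for COR15B and 1.33 for COR15A on the log2 scale, each above at least 96.2% of genes. In mta drought the association fell for KIN2 by -0.46 ± 0.13, for COR15A by -0.53 ± 0.13, for COR15B by -0.57 ± 0.18 and for RD20 by -0.54 ± 0.11. With the span trend removed none of these 4 was called, and the values became 0.12, -0.27, -0.30 and -0.22. The WT falls of COR15A (-0.37 ± 0.13), COR15B (-0.74 ± 0.24) and RD20 (-0.35 ± 0.12) were lost in the same way, at -0.24, -0.60 and -0.19.

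Some of these calls also rest on 1 library. The WT falls of COR15B and RD20 were lost without WT control mRNA replicate 1 (adjusted p = 0.0567 and 0.215), those of COR15A and RD20 without WT control mRNA replicate 3 (0.123 and 0.0506), and the mta fall of COR15B without mta drought mRNA replicate 2 (0.124). KIN2 in WT was at -0.29 ± 0.13 (adjusted p = 0.129) and passed the threshold in 20 of the 24 fits, down to -0.52. RD22 rose by 0.40 ± 0.11 in mta, a call that was lost in 18 of the 24 fits, with values down to 0.03, and with TMM taken within each assay (0.25, adjusted p = 0.0616). Relative to the median of all genes RD22 in mta was at 0.36 and stayed between 0.19 and 0.44 in those fits. On the same relative scale, the values in WT were 0.71 for KIN1 (0.53 to 0.82 in those fits), -0.44 for COR15A (-0.52 to -0.32), -0.81 for COR15B (-0.91 to -0.66) and -0.42 for RD20 (-0.54 to -0.30). In mta they were -0.51 for KIN1 (-0.62 to -0.41), -0.50 for KIN2 (-0.58 to -0.43), -0.57 for COR15A (-0.70 to -0.49), -0.62 for COR15B (-0.76 to -0.46) and -0.58 for RD20 (-0.72 to -0.50).

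The mRNA libraries also differed in how level followed gene span, and the part of this in the values above was not tested. In mta drought the rank correlation of level with span, relative to the mean over libraries, was -0.241 to -0.328 across 17666 genes, and it was -0.0102 to 0.202 in the other 9 mRNA libraries, those of WT drought included. KIN1 and KIN2 are among the short genes, with 7.26% and 5.91% of tested genes shorter than they are, against 63.9% for RD29A, 51.7% for RD29B and 58.5% for RD22. COR15A, COR15B and RD20 lie between, at 29.2%, 27.4% and 23.1%.

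Between the genotypes, polysome association in control was higher in mta for RD29B and KIN1 and lower for COR15B (-0.77 ± 0.17, adjusted p = 0.0039), beside 8.26% of all genes, 2.37% higher and 5.89% lower. The share of higher values among those called was 28.7% here and 42.2% with DESeq2's size factors. In drought it was higher in mta for RD29A (0.33 ± 0.08, adjusted p = 0.0036) and RD22 (0.30 ± 0.10, adjusted p = 0.0462) and lower for KIN1 (-0.46 ± 0.11), KIN2 (-0.41 ± 0.13) and COR15A (-0.54 ± 0.12), beside 16.8% of all genes, 8.72% higher and 8.03% lower. The calls of KIN2 and RD22 there were lost in 9 and 8 of the 24 fits with 1 library left out, and both with the span trend removed (adjusted p = 0.104 and 0.0612), with KIN1 at -0.28 in that fit (0.0434), and that of RD22 was also lost with TMM taken within each assay (0.0930). A difference of the drought effects was called for RD29B and KIN1, both below 0, beside 9.59% of all genes, 6.79% above and 2.8% below 0. The share above 0 among those called was 70.8%, and 52.6% with TMM taken within each assay.

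Leaving out 1 library also brought calls. In control, KIN2 and COR15A were lower in mta without WT control mRNA replicate 2 (adjusted p = 0.0231 and 0.0356) and COR15A without mta control mRNA replicate 1 (0.0464), and RD20 was higher without mta control mRNA replicate 2 (0.0056). In drought, COR15B was lower in mta (-0.60 with all libraries) without mta drought mRNA replicate 3 or WT drought polysomal replicate 1 (adjusted p = 0.0488 and 0.0203). The RD22 difference of 0.44 ± 0.15 passed without mta control mRNA replicate 2 or 3 (0.0224 and 0.0344), and RD22 in WT drought passed at -0.21 without mta control mRNA replicate 1 (0.0496).

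**Figure D4:**
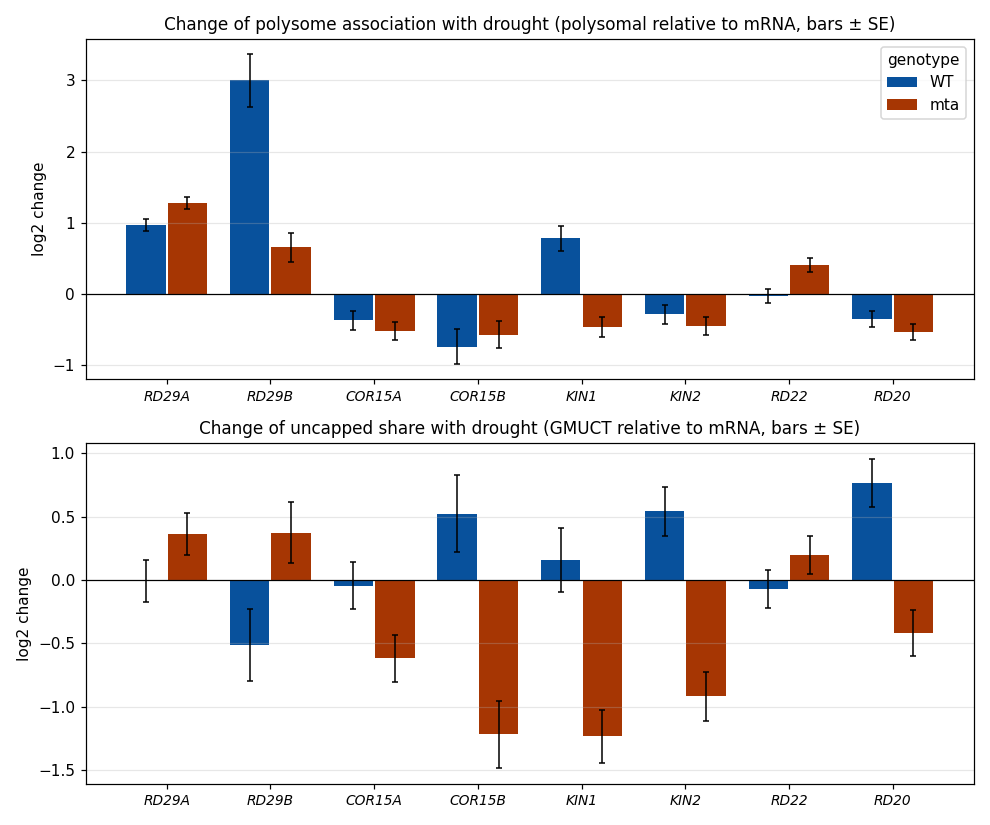
Change with drought of polysome association (upper panel) and of the uncapped share (lower panel) on the log2 scale, with bars for WT and mta and whiskers of 1 SE. RD29B rises by 3.00 in WT polysome association, and the uncapped share of KIN1, KIN2, COR15A and COR15B is below 0 in mta.

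The uncapped share, the change of GMUCT relative to mRNA on the log2 scale, reads how much of a transcript is found without its cap. In WT it rose with drought for RD20, by 0.77 ± 0.19 (adjusted p = 0.0152), and was called for no other member, beside 4.58% of 19142 genes, 2.93% higher and 1.66% lower. In mta it fell for KIN1 (-1.23 ± 0.21, adjusted p = 0.00013), KIN2 (-0.92 ± 0.19, adjusted p = 0.0011), COR15A (-0.62 ± 0.18, adjusted p = 0.0163) and COR15B (-1.22 ± 0.27, adjusted p = 0.0016), beside 19.1% of all genes, 10.4% higher and 8.64% lower. RD29A, RD29B, RD22 and RD20 were not called in mta, at 0.37 ± 0.17, 0.37 ± 0.24, 0.20 ± 0.15 and -0.42 ± 0.18. The RD20 call in WT was lost without WT control mRNA replicate 2 (0.64, adjusted p = 0.0864) and without WT drought mRNA replicate 1 (0.72, adjusted p = 0.0513). The COR15A call in mta was lost without mta control mRNA replicate 1 or mta drought mRNA replicate 2 (adjusted p = 0.0594 and 0.0617) and with the span trend removed (-0.42, adjusted p = 0.105). RD20 in mta passed without WT control mRNA replicate 3, mta control mRNA replicate 2 or mta drought GMUCT replicate 3 (-0.53, -0.57 and -0.59), and RD29A in mta without mta drought GMUCT replicate 1 (0.47, adjusted p = 0.0497). The median over all genes was 0.02 in WT and -0.01 in mta and moved to -0.10 and -0.12 without WT control mRNA replicate 3, the reference library of this scaling. With TMM taken within each assay the share of higher values among the called genes went from 63.9% to 45.5% in WT and from 54.7% to 44.2% in mta. It was 32.6% in WT and 39.1% in mta without organelle genes, and 26.6% and 33.9% with no filter on low counts.

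KIN2 shows the pattern in its levels. It held 151, 152 and 129 GMUCT CPM in WT control and 274, 249 and 284 in WT drought, but 279.9, 284 and 286 in mta control and 203, 173 and 249 in mta drought. Its uncapped RNA was thus higher in drought than in control in every WT library and lower in every mta library, while its mRNA was higher in drought in both. KIN1 held 7099, 7176 and 7122 GMUCT CPM in WT drought and 2685, 3093 and 3970 in mta drought. Its mRNA differed there by only -0.11 in mta against WT, but by -0.58, a called value, with the span trend removed.

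Between the genotypes, the effect of drought on the uncapped share differed by a called value for KIN1 (-1.39 ± 0.32, adjusted p = 0.0089), KIN2 (-1.46 ± 0.27, adjusted p = 0.0019), COR15B (-1.74 ± 0.40, adjusted p = 0.0089) and RD20 (-1.18 ± 0.26, adjusted p = 0.0073), all below 0, beside 7.17% of all genes, 3.79% above and 3.38% below 0. The KIN1 value was not called with the span trend removed (-0.94, adjusted p = 0.11) or without WT control mRNA replicate 2 (-1.19, adjusted p = 0.0545). COR15B rests on 27 to 55 GMUCT reads per library in WT drought and 16 to 87 in mta drought, and the GMUCT counts hold both strands, so that reads of the overlapping AT2G42520 cannot be told apart from its own. In drought the uncapped share was higher in mta for RD29B (0.83 ± 0.19, adjusted p = 0.0034) and lower for KIN1 (-1.06 ± 0.19), KIN2 (-1.23 ± 0.19), COR15B (-1.44 ± 0.34) and RD20 (-0.61 ± 0.18), beside 16.5% of all genes, 7.18% higher and 9.28% lower. The RD20 call was lost without WT drought mRNA replicate 1 or mta drought GMUCT replicate 2 (adjusted p = 0.051 and 0.0605) and with the span trend removed (-0.36, adjusted p = 0.184). KIN1 and KIN2 stayed called with the span trend removed, at -0.69 and -0.85 (adjusted p = 0.0133 and 0.0015), or -0.58 and -0.75 relative to the median of all genes, against -0.97 and -1.14 before. RD29A, at 0.41 ± 0.17 (adjusted p = 0.0913), passed without WT control mRNA replicate 3, WT drought GMUCT replicate 1 or mta drought GMUCT replicate 1 (0.48, 0.52 and 0.51). In control no member was called by edgeR, where 0.35% of all genes were (0.167% higher, 0.183% lower), with 1 member at an unadjusted p under 0.05 and 0 called by DESeq2.

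The near copies KIN1 and KIN2 also differed in GMUCT relative to mRNA. Reads that map to several places were not counted, so levels within this pair are uncertain. The part of this in the values below was not tested. GMUCT relative to mRNA was 3.10 ± 0.19 for KIN1 and -0.72 ± 0.14 for KIN2 on the log2 scale in WT control, and 2.201 ± 0.14 and -1.40 ± 0.14 in mta drought. In all 4 groups KIN1 lay above at least 88.7% of genes and KIN2 above at most 39.1%. RD29B was on the side of KIN1, at 2.68 ± 0.24 in WT control and 3.00 ± 0.15 in mta drought.

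Peaks of m6A were few and weak on these genes. A same-strand peak in at least 2 of the 3 libraries of a group was found for 3 members in WT control (RD29A, COR15A, RD20), beside 55.7% of expressed genes. The same was found for 1 in WT drought (RD29B, 58.5%), for 2 in mta control (RD29A, RD22, 48.9%) and for 2 in mta drought (RD29A, RD29B, 44.0%). No same-strand peak of a member reached a fold enrichment of 4 at its summit (the value the authors' peak caller gave), while the median over a library's peaks was 4.99 to 6.55. KIN1 and COR15B had no same-strand peak in any library, and KIN2 had 1, with a fold of 3.24 in a WT drought library.

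RD29A carried the steadiest peak, between 21242911 and 21243219 on chromosome 5, with summits 447 to 655 bases before the gene end, at a median of 80.1% of the span. Its folds were 2.98, 1.92 and 2.66 in the 3 WT control libraries, 2.42, 3.67 and 3.30 in mta control and 2.51, 1.87 and 2.33 in mta drought. These folds overlap between the groups, and no WT drought library held a same-strand peak there. In those 3 WT drought libraries alone a peak lay at the same place on the opposite strand (21242894 to 21243108), with folds of 8.67, 6.26 and 7.68, and 1 of them had such a peak on RD29B with a fold of 5.87. A second RD29A peak near the gene start, at 12.1% of the span, was found in 1 library each of WT control, WT drought and mta control, with folds of 3.28, 2.06 and 2.59.

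RD29B held a peak at a median of 82.0% of its span (21238969 to 21239330) in 2 WT drought libraries (folds 1.77 and 2.18), 1 mta control library (3.53) and 2 mta drought libraries (1.94 and 2.05). COR15A held a peak at 58.8% of its span (17711114 to 17711308) in 2 WT control libraries (2.81 and 3.02) and 1 mta control library (1.93). RD20 held a peak at 13.4% of its span (14146313 to 14146389) in 2 WT control libraries (2.94 and 2.25) and 1 mta control library (3.07). RD22 held a peak at 74.5% of its span (8914726 to 8914844) in all 3 mta control libraries, with folds of 2.12, 2.73 and 2.24, and in no library of another group. COR15B was covered in all 12 libraries by an opposite-strand peak where it overlaps AT2G42520, with folds of 6.29 to 14.0. Peaks were called in each library separately, and the depth of the m6A libraries is unknown. Some members had few mRNA reads per library, with 8 to 16 for RD29B and 5 to 40 for KIN1 in WT control. COR15B had 32 to 35 in WT drought. The part of such low levels in the absence of a peak was not tested.

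**Figure D5:**
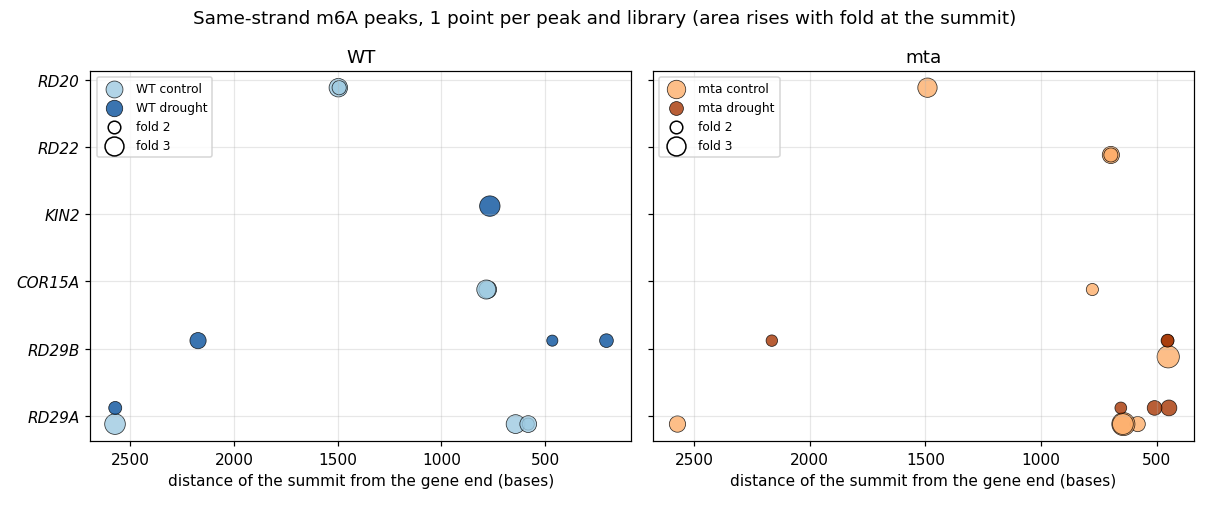
Same-strand m6A peaks of the members, with 1 point per peak and library placed by the distance of its summit from the gene end in bases and an area that rises with its fold enrichment. RD29A shows peaks 447 to 655 bases before its end in every group but WT drought, and RD22 shows its peak in mta control alone.

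The regulators of these genes were listed as 29 transcription factors, kinases, phosphatases and related genes, of which 27 were tested. In WT 20 rose and 3 fell with drought, with a median of 1.18, and in mta 19 rose and 4 fell, with a median of 0.82. Over all tested genes 32.6% rose and 35.3% fell in WT, and 35.1% rose and 35.3% fell in mta. HAI1 and ABI2, phosphatases that restrain ABA signalling and are induced by it, rose in WT by 4.87 ± 0.11 and 4.29 ± 0.13. CBF2 and CBF1, the cold response factors upstream of the COR and KIN genes, fell in WT by -4.28 ± 0.23 and -3.68 ± 0.24 and in mta by -3.44 ± 0.21 and -3.485 ± 0.23. CBF1 and CBF2 mRNA thus fell while COR15A, KIN1 and KIN2 rose and COR15B fell, and whether these changes are linked was not tested.

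A difference of the drought effects was called for 15 regulators, 4 above and 11 below 0, with a median over the list of -0.41 beside 0.03 over all genes. Of all tested genes it was called for 37.6%, 19.6% above and 18.0% below 0. MYB2, a known activator of RD22, rose in mta by 2.02 ± 0.15 and was at -0.22 ± 0.22 in WT (difference 2.24 ± 0.27, adjusted p = 1.1e-06). MYC2, the other known activator of RD22, which was picked after its values were seen, fell by -2.83 ± 0.09 in WT and by -1.965 ± 0.09 in mta while RD22 rose. The part of MYB2 or MYC2 in the RD22 values was not tested. CBF4, the drought-responsive CBF, rose in WT by 1.93 ± 0.29 and was at 0.55 ± 0.37 in mta (difference -1.38 ± 0.48, adjusted p = 0.0284), and DREB2B differed by -1.12 ± 0.38 (adjusted p = 0.0227).

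Among 17 other targets of cold and ABA signalling 15 rose and 1 fell in WT and 14 rose and 1 fell in mta, with medians of 2.84 and 2.19. Over all tested genes 32.6% rose and 35.3% fell in WT, and 35.1% rose and 35.3% fell in mta. LEA7 and RAB18, LEA proteins of the same protective kind, rose in WT by 12.69 ± 0.26 and 10.04 ± 0.13 and in mta by 10.13 ± 0.22 and 8.30 ± 0.12. GOLS3, a galactinol synthase known for its cold response, fell in WT by -3.42 ± 0.70 and ERD14, a dehydrin, rose by 1.30 ± 0.11. The difference of the drought effects was called below 0 for 12 of the 17 and above it for 2, beside 18.0% and 19.6% of all genes. Its median over the list was -0.55. Its largest values in size were -2.56 ± 0.43 for LEA7 (adjusted p = 6.47e-05), -1.99 ± 0.41 for LEA4-5 and -1.74 ± 0.14 for RAB18.

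Of 16 further genes named RD or ERD for their response to dehydration, 10 rose and 4 fell in WT and 10 rose and 2 fell in mta, with medians of 1.01 and 0.85. Over all tested genes 32.6% rose and 35.3% fell in WT, and 35.1% rose and 35.3% fell in mta. The dehydrin genes COR47 and ERD10, which the list shares with the one above, rose in WT by 2.84 ± 0.11 and 2.81 ± 0.11, while ERD3 fell by -4.02 ± 0.18 and ERD6, a sugar transporter gene, by -1.86 ± 0.09. The difference was called above 0 for 3 and below 0 for 5, beside 19.6% and 18.0% of all genes, with a median of -0.11. It was 1.93 ± 0.12 for ERD6 and 1.46 ± 0.13 for ERD15, which fell in WT and were not called in mta, and -1.24 ± 0.15 for ERD4, which rose in WT and was not called in mta. Of 5 relatives of RD20 and RD22, 2 were tested. CLO4, a caleosin, fell in WT by -1.46 ± 0.26 and USPL1, a BURP-domain gene, by -2.02 ± 0.39, against the direction of RD20 and RD22, neither was called in mta, and the difference was 1.19 ± 0.35 (adjusted p = 0.0098) for CLO4.

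Over the 12 mRNA libraries the members followed each other to different degrees. Pearson's r of log2 CPM was 0.996 between KIN1 and COR15A, 0.985 between RD29A and RD22 and 0.964 between RD29A and RD29B, while KIN1 and KIN2 stood at 0.589 and COR15A and COR15B at -0.782. These values share the same 4 groups and describe mostly the order of the group means. By the same measure over 15151 genes, the genes most like each member were MSL6 and PHT4;5 for RD29A (0.996 for both), AAO3 and AT2G42560 for RD29B (0.998 for both) and RAP2.6 and AT2G25450 for KIN1 (0.998 and 0.997). They were AGL19 and AT1G23130 for KIN2 (0.990 and 0.986), DI21 and AT4G36210 for COR15A (0.997 for both) and ORA59 and AT1G61170 for COR15B (0.994 and 0.992). For RD22 they were DAW1 and LACS8 (0.996 and 0.995), and for RD20 CAD1 and DOX1 (0.997 and 0.996).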

How the data were processed

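For 36 libraries the authors deposited raw counts per gene, made per the file headers with featureCounts 2.0.1 (mRNA and GMUCT) or 2.0.3 (polysomal) on whole gene spans, strand-specific except for GMUCT. The tools named in the submitters' processing notes are MACS2, STAR, cutadapt, Trim Galore, FastQC, SAMtools and bedtools, with the TAIR10 build. Their roles, and the library that served as background for the peaks, are not given in the sources used here. Of polysomal counts from 1 to 50, a share of 95.5% to 96.8% was even, against at most 47.6% in the other assays, so polysomal counts may come in pairs. For the 12 m6A libraries the authors deposited narrowPeak lists per strand, with a fold enrichment (a ratio) at the summit, −log10 p and −log10 q, and a score that was not used.

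Counts were tested in edgeR 4.0.16 (R 4.3.3) by quasi-likelihood F tests with filterByExpr (minimum count 10, total 15), TMM and 1 mean per group and assay. Polysome association and the uncapped share are contrasts of 2 assays in 1 model over 24 libraries and share the mRNA libraries. The filter kept 17666, 20392 and 19142 genes, and p-values were adjusted over all of them. On simulated counts, 83.3%, 55.7% and 46.6% of genes changed by 1 log2 unit and 100%, 100% and 99.0% of those changed by 2 were recovered in drought against control in WT (mRNA, polysome association, uncapped share). In the simulation 200 genes changed, only in WT drought, at a fixed dispersion of 0.02 and with no span trend. These shares are therefore not the power of the tests on the real libraries. A peak belongs to a gene it overlaps by at least 1 base. The members and lists were chosen with earlier results of these data known. Named list genes are the 2 largest and 2 smallest called in WT drought and up to 3 with the largest called difference. Genes like a member have the highest r among genes with a mean log2 CPM of at least 2. DESeq2 1.42.0, other scalings and filters, a span correction, a replicate block and each library left out were tried as alternatives. Each group has 3 libraries per assay.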

Additional observations from a re-analysis of the deposited data

Results flagged for a closer look

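The results below were picked out because the effect of drought differed between WT and mta by a test of the difference itself (edgeR, adjusted p under 0.05), given as the mta minus the WT log2 change. In mRNA this held for RD29A (-2.14), RD29B (-3.28), KIN1 (-1.20), COR15A (-1.83), RD22 (-0.65), COR15B (1.14) and RD20 (0.85). In polysome association it held for RD29B (-2.35), whose WT control value rests on 6 to 30 polysomal reads per library, and for KIN1 (-1.25). In the uncapped share it held for KIN1 (-1.39), KIN2 (-1.46), COR15B (-1.74) and RD20 (-1.18). The KIN1 value was not called with the span trend removed (-0.94) or in 1 of the 24 fits with 1 library left out. COR15B rests on 27 to 55 GMUCT reads per library in WT drought and 16 to 87 in mta drought, counted on both strands.

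The opposite-strand m6A peak on RD29A, with a fold of up to 8.67, was picked out because it lies outside the same-strand peaks compared above and was found in all 3 WT drought libraries and in none of the other 9 libraries.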

How the results depend on the processing

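No call of a member in mRNA was lost under any alternative. In the tests between assays, the removal of the span trend changed most. It moved the members called in polysome association from 6 to 3 (drought in WT), 8 to 3 (drought in mta), 3 to 5 (mta against WT in control) and 5 to 3 (in drought). It moved the genes called there from 3828 to 2527, 7267 to 4669 and, for the difference of the drought effects, 1955 to 1239, and in the uncapped share from 3648 to 2198 (drought in mta), 3151 to 1742 (mta against WT in drought) and 1373 to 368 (difference). In mta against WT the genes called in polysome association, 1684 in control and 3416 in drought, changed by a ratio of at most 1.5. Values that changed sign with the span trend removed were KIN2 in the mRNA difference (-0.30), KIN1 (0.087) and KIN2 (0.12) in polysome association in mta drought, KIN2 in its difference (0.13) and the RD29A uncapped share in WT drought (0.041). DESeq2 called 4 members, not 2, in the difference of polysome association. The genes called in that difference, 1955 with edgeR, changed by a ratio of at most 1.5. The genes called in the uncapped share in WT drought were 1721 with no filter and 1388 without organelle genes, not 877. Those called in mta against WT in control were 187 with no filter and 218 with DESeq2, not 67. With no filter the KIN1 uncapped share in WT drought turned to -0.032. Peaks of fold 4 or more were present on 0, 0, 0 and 0 members in WT control, WT drought, mta control and mta drought, and peaks in all 3 libraries on 1 in WT control, 0 in WT drought and 1 in mta drought. In mta control RD29A and RD22 each held a peak in all 3 libraries, so that group did not change. The share of all genes with a peak was not computed under these stricter settings. The median over all genes of the uncapped share moved to -0.13 in WT drought with no filter and to -0.11 and -0.12 in WT and mta drought without organelle genes. The cause was not tested, except for the shift of polysome association with the reference library of TMM given above.

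With each library left out in turn, the genes called in the uncapped share ranged from 554 to 1183 (drought in WT), 25 to 93 (mta against WT in control) and 799 to 1702 (difference). The members called ranged from 3 to 5 in polysome association in mta against WT in drought, beside 2488 to 3675 of all genes. In the uncapped share in WT drought the members called ranged from 0 to 1. Values that were not called and crossed 0 were the uncapped shares in WT drought of COR15A (-0.15 to 0.0088), KIN1 (-0.042 to 0.19) and RD29A (-0.15 to 0.13) and in mta against WT in control of RD29A (-0.031 to 0.17) and RD29B (-0.22 to 0.12). In polysome association they were the differences of COR15B (-0.016 to 0.34) and KIN2 (-0.29 to 0.0081) and, in mta against WT in control, RD22 (-0.20 to 0.067) and RD29A (-0.018 to 0.12). RD22 in WT drought ranged from -0.24 to 0.0048. The mRNA difference of KIN2 ranged from -0.040 to 0.23.

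Libraries with the same replicate number correlated by 0.06 on average between mRNA and GMUCT (-0.06 to 0.29), 0.04 between mRNA and polysomal RNA and 0.00 between the mRNA groups, so the numbers were not taken as pairs. With the replicate number as a block, 142 genes were called in the uncapped share in mta against WT in control, not 67, the RD29A uncapped share in WT drought was 0.0011 and that of RD29B in mta against WT in control was 0.047. The block ended no call of a member and added COR15A (-0.39, mta against WT in control) and COR15B (-0.58, in drought) in polysome association. The 8 to 16 RD29B reads in WT control mRNA and the unknown depth of the peak lists limit what these values can show.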
